A study of Mus musculus with 18 samples.

Results

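The nuclear genes for the subunits of the respiratory chain and of the ATP synthase were followed over 3 brain cell fractions and 2 genotypes of mice. The set was chosen by gene name alone: every row of the deposited transcript count table whose name began as the NADH dehydrogenase (Nduf), succinate dehydrogenase (Sdh), cytochrome bc1 (Uqcr, Cyc1), cytochrome c oxidase (Cox4i, Cox5 to Cox8) or ATP synthase (Atp5) subunits do, without pseudogene names. Of 35960 gene names in that file, 92 matched, and 81 of these had at least 5 reads in at least 2 of the 18 libraries, as had 13552 names in all. The 81 genes comprised 36 of 41 matching names of complex I, 4 of 4 of complex II, 9 of 9 of complex III, 15 of 21 of complex IV and 17 of 17 of complex V. Ndufa4 and its paralog Ndufa4l2 carry a complex I name but were counted with complex IV, where Ndufa4 is a subunit. The 11 names under the limit were Cox4i2 (9 reads over all libraries), Cox6c2 (3), Cox7a1 (25), Cox7b2 (1), Cox8b (5), Cox8c (1), Ndufa11b (3), Ndufb11b (1), Ndufb4c (24), Ndufb6 (40) and Ndufs6b (0). Among these, Cox6c2, Ndufa11b, Ndufb4c and Ndufs6b are annotated by GENCODE as processed pseudogenes, although their names do not show it.

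These subunits are built in the cytosol, imported into the mitochondrion and joined there to a small core made from mitochondrial DNA. Complexes I and II feed electrons from NADH and succinate to ubiquinone, complex III passes them on to cytochrome c and complex IV to oxygen, and complex V, the ATP synthase, uses the resulting proton gradient to make ATP. Complex II has no mitochondrially encoded subunit. Neurons are known to rely strongly on this pathway, whereas astrocytes and microglia can draw more of their ATP from glycolysis.

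The mice were 10 months old, on a C57BL/6 background, and either wild type (WT) or homozygous for the Atxn2-CAG100-KIN allele (KIN), a knock-in of an expanded CAG repeat in Atxn2 that models spinocerebellar ataxia type 2. From each single brain microglia were taken with CD11b beads, astrocytes with ACSA-2 beads, and neurons last, as the cells left by beads against non-neuronal cells and CD31b. The antigens of the first 2 selections and the leftover nature of the neuronal fraction limit what each fraction can hold. Each of the 6 groups had 3 libraries, from different mice within a group, so p-values measure the spread between mice of 1 colony. The fractions were taken one after the other from the same brains, so the 18 libraries come from 6 mice and are not independent between fractions. The study's methods describe KIN and WT littermate pairs of the same sex, 2 male and 1 female, but the sample labels do not give the sex of a library or say that a replicate number marks one brain. The read counts do not show the repeat itself.

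Reads were taken from the ends of transcripts, so that only part of each gene's isoforms is seen. Libraries held 761481 to 3296398 counted reads, of which the 10 most abundant transcripts took 75.8 to 85.4%. Neuronal libraries of WT mice were the shallowest, at 761481 to 1017972 reads, against 1473194 to 2017932 in KIN neurons. The subunit genes together received 469 to 3747 reads per library, 30456 in all. Levels are given as CPM, the reads of a gene per 1000000 reads of a library, with library sizes scaled over all 18 libraries by the trimmed mean of M-values (TMM), and 3 reads were worth 0.864 to 4.05 CPM. Fold changes are log2 values with their standard error (SE) from edgeR's quasi-likelihood test, and adjusted p-values are Benjamini-Hochberg values over all genes of that fit. A gene was called when its log2 fold change was at least 1 in size with an adjusted p of 0.05 or less.

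Microglial and astrocyte markers were highest in the fractions of those names. Summed over 7 microglial markers, microglia held 701 to 1070 CPM and astrocytes 4.32 to 9.72 CPM. Summed over 7 astrocyte markers, astrocytes of WT mice held 642 to 947 CPM and those of KIN mice 347 to 378 CPM, whereas neurons held 6.5 to 13.1 CPM. The astrocytic fraction also held 356 to 553 CPM of 6 oligodendrocyte markers in WT and 616 to 631 CPM in KIN, in KIN more than of the astrocyte markers. Of 10 neuronal markers only 2 were called higher in the neuronal fraction than in astrocytes, Tubb3 (log2 fold change 2.94 ± 0.21) and Gad1 (3.16 ± 0.33), while 4 were called lower, Snap25 (-1.09 ± 0.40), Syt1 (-2.64 ± 0.64), Eno2 (-1.40 ± 0.41) and Nrgn (-2.93 ± 0.64). Over the 10 markers 8 were below 0 and the median was -0.93. Their sum was 105 to 172 CPM in the neuronal fraction, 48.1 to 150 CPM in WT and 38.9 to 57.9 CPM in KIN astrocytes and 9.33 to 77.1 CPM in microglia, so that it was highest in the neuronal fraction on average while most single markers were not. Tubb3 and Gad1 are markers that the study itself used for neurons in these samples, and so no independent check of the label, and the name neuronal fraction is used here as its label. It also held 148 to 450 CPM of ependymal and choroid plexus markers and 112 to 519 CPM of erythroid markers.

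Promoters were compared with 3 short motifs known from respiratory genes, the core sites of NRF1 (CGCANGCG), ETS-family factors such as GABP (CCGGAAG) and YY1 (AAGATGGCG), each searched on both strands from 250 bases before to 50 bases after the RefSeq start (GRCm38.p6). A RefSeq promoter was found for 66 of the 81 genes. The NRF1 core was present in 24 of them (36.4%), against 8.42% of all 27025 promoters of the table. The ETS core was present in 15 (22.7%, against 9.12%) and the YY1 core in 6 (9.09%, against 1.49%). At least 1 of the 3 was found in 37 promoters (56.1%), against 16.9% of all promoters. The motifs are described here because the genes that rose in KIN astrocytes, below, include carriers of each one: of 9 such genes with a promoter, 6 (66.7%) held at least 1 core, close to the 56.1% of all the subunit genes. Those of 4 genes are shown with up to 11 bases on either side, the motif letters in capitals, read 5′ to 3′ on the strand of the gene.

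Atp5e: tacggccacagCTTCCGGtagccgctcgg

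Atp5g2: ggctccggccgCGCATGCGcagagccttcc

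Ndufa12: ctccagctctgCGCCTGCGtagaacgacct

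Ndufa5: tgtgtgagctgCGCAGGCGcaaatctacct

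In GRCm39 each stretch had 1 exact match when taken with 25 bases on either side of the motif. That of Atp5e lies at chr2:174305979-174306007 on the minus strand, outside any annotated gene, and shows the ETS core as it reads on the opposite strand. The stretch of Ndufa12 likewise matches the NRF1 core only on the opposite strand, that of Ndufa5 matches it as written, and that of Atp5g2 on both. The whole stretches with the NRF1 core lie at chr15:102579505-102579534 (minus strand) for Atp5g2, chr10:94034767-94034796 (plus strand) for Ndufa12 and chr6:24527696-24527725 (minus strand) for Ndufa5. GENCODE places these 3 stretches in exons and UTRs of annotated transcripts of the same genes, although they lie upstream of the RefSeq starts. A match is a run of letters and was not tested for binding, and the absence of these letters from the windows of Cox6b2, Ndufa3 and Ndufv2 says nothing of a factor.

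In astrocytes 10 of 80 subunit genes tested rose in KIN mice, 7 in complex I, 2 in complex V and 1 in complex IV, and 0 fell, while 2.43% of all 11751 genes tested rose and 6.42% fell. Of the 80 genes 74 had a log2 fold change above 0 (92.5%, against 49.7% of all genes), and their median was 0.55 (quartiles 0.29 and 0.80, range -0.56 to 2.48), against -0.00 over all genes. By the adjusted p alone, whatever the fold, 24 were higher and 0 lower, against 4.33% higher of all genes. In 41 genes every KIN library lay above every WT library, a pattern shown by 13.8% of all genes, and in 0 genes every KIN library lay below, against 14.1% of all genes. In bulk RNA of a fraction, more cells of a type and more RNA per cell cannot be told apart.

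The members of complex I, the NADH dehydrogenase, gave 7 of the 10 genes that rose, and had a median of 0.64 over 36 genes. Ndufa3, an accessory subunit, was read at 7.42, 11.1 and 10.0 CPM in the WT astrocyte libraries and at 23.0, 20.5 and 26.5 CPM in the KIN libraries. All KIN values were above all WT values, with a log2 fold change of 1.28 ± 0.24 (SE, n = 3 and 3, adjusted p = 0.000209). Ndufb9, an accessory subunit of the membrane arm, was read at 8.83, 7.80 and 8.47 CPM in WT and at 17, 20 and 18 CPM in KIN. The groups were tight and apart (1.10 ± 0.25, adjusted p = 0.00165). Ndufa3 and Ndufb9 kept their call under each of 17 alternative settings.

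Ndufa7, another accessory subunit, was read at 7.42, 11.1 and 8.15 CPM in WT and at 16.4, 21.5 and 22.2 CPM in KIN. The groups did not overlap (1.14 ± 0.25, adjusted p = 0.00126). Only 20.2% of its reads fell on protein-coding transcripts, and on these alone the change was 0.72 (adjusted p = 0.325), so the call rests on reads of non-coding transcript models. Ndufv2, a core iron-sulfur subunit of the NADH-oxidising module, was read at 6.71, 3.58 and 5.96 CPM in WT and at 8.93, 17.4 and 10.7 CPM in KIN. The KIN values were all higher but spread widely (1.12 ± 0.30, adjusted p = 0.0095), and without KIN library 2 the change was 0.83 (adjusted p = 0.115). Its call was also lost with DESeq2 (adjusted p = 0.0643) and without WT library 2, where the change was 0.87.

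Ndufa12, an accessory subunit of the matrix arm, was read at 2.83, 8.13 and 3.14 CPM in WT and at 10.4, 9.72 and 10.4 CPM in KIN. The KIN libraries were close together and WT library 2 was nearer to them than to the other WT libraries (1.09 ± 0.32, adjusted p = 0.0174). Its call was lost with DESeq2 (adjusted p = 0.114) and without WT library 1 (0.147), WT library 3 (0.163), KIN library 1 (0.0696) or KIN library 3 (0.0699). Ndufa5, also of the matrix arm, was read at 3.89, 2.93 and 2.51 CPM in WT and at 8.07, 8.19 and 4.98 CPM in KIN. The groups did not overlap (1.17 ± 0.35, adjusted p = 0.0188), but the call was lost with DESeq2 (adjusted p = 0.134), on protein-coding transcripts alone (0.89, adjusted p = 0.264) and without KIN library 1 (0.116), KIN library 2 (0.0751) or WT library 3 (0.122).

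The seventh, Ndufs7, is a core subunit that holds the last iron-sulfur cluster before ubiquinone, and it had by far the most reads of the set (5068). It was read at 81.2, 112 and 83.1 CPM in WT and at 158, 284 and 179 CPM in KIN astrocytes (1.15 ± 0.23, adjusted p = 0.000392). These values are uncertain as a measure of the gene. A single transcript of 997 bases, at chr10:80084941-80092627 on the plus strand (GRCm39), took 4865 of the reads (96.0%), and it holds at bases 53 to 82, ahead of its coding start, a stretch that is shown because it has exact copies elsewhere.

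Ndufs7, leading transcript, bases 53 to 82: GTCTCTGTGGCGCAATCGGTTAGCGCGTTC

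These capitals mark the whole repeated stretch, whose letters occur in the same order at 9 places on 6 chromosomes of GRCm39, its own copy being chr10:80084993-80085022. They are the 5′ part of an asparagine tRNA gene. The leading transcript was read at 75.6, 104 and 78.4 CPM in WT and at 150, 275 and 172 CPM in KIN astrocytes. The other 5 transcripts of Ndufs7, with 203 reads in all, were read at 5.65, 8.13 and 4.70 CPM in WT and at 7.49, 9.72 and 7.29 CPM in KIN, and these groups overlapped. Without its leading transcript the fold change of Ndufs7 was 0.37 (adjusted p = 0.498), and without KIN library 2 it was 0.85. Of the other 79 genes 9 then rose and the median stayed at 0.55. Ndufs7 also overlaps Gamt on the opposite strand, and the reads were counted without regard to strand.

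**Figure D1:**
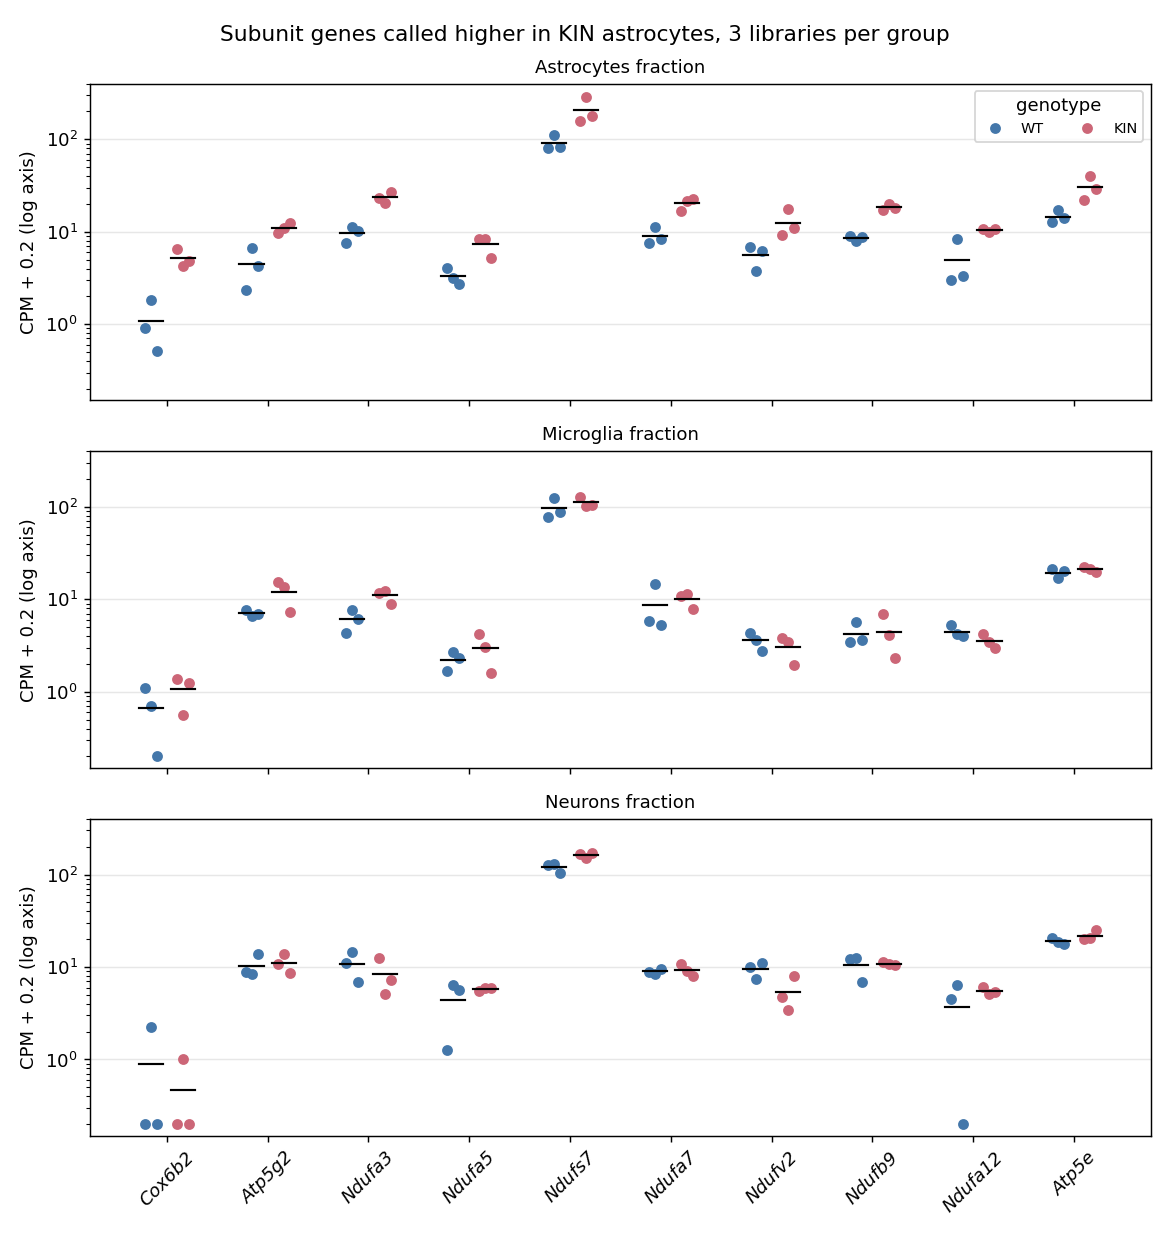
Level of the 10 subunit genes that rose in KIN astrocytes, in each library of the 3 fractions (CPM + 0.2 on a log axis; points are libraries, WT and KIN side by side, and black lines are group means). In astrocytes 9 of the 10 genes, Ndufs7 apart, lie between 0.314 and 16.9 CPM in WT and between 4.09 and 39.4 CPM in KIN. Ndufa3 also has every KIN library above every WT library in microglia.

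Complex V gave 2 of the genes that rose, with a median of 0.74 over 17 genes, all of them above 0. Atp5e, the epsilon subunit of the central stalk, was read at 12.4, 16.9 and 13.8 CPM in WT and at 21.9, 39.4 and 29.1 CPM in KIN astrocytes. The groups did not overlap (1.02 ± 0.24, adjusted p = 0.00208), but the change was 0.80 without KIN library 2, 0.92 without WT library 1 and 0.99 without WT library 3. Atp5g2, one of 3 genes that encode the c subunit of the rotor ring, was read at 2.12, 6.5 and 4.08 CPM in WT and at 9.51, 10.7 and 12.3 CPM in KIN. The groups did not overlap (1.31 ± 0.32, adjusted p = 0.00365), although the adjusted p was 0.0605 without WT library 1. The lncRNA Gm10175, with 319 reads, shares 619 words of 31 bases with Atp5g2, whose own count was 346, so reads may have been divided between them. Of the other c subunit genes Atp5g1 was read at 14.5, 18.2 and 14.7 CPM in WT and at 31.4, 26.6 and 27.2 CPM in KIN (0.84 ± 0.22, adjusted p = 0.00792), with no overlap. Atp5g3 was read at 4.95, 4.23 and 5.96 CPM in WT and at 4.32, 5.12 and 6.52 CPM in KIN (0.04 ± 0.33, adjusted p = 0.959), with the groups interleaved.

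Complex IV gave 1 gene, with a median of 0.50 over 14 genes tested. Cox6b2, the isoform of subunit 6b known from testis, had 8 reads in the WT astrocyte libraries (0.706, 1.63 and 0.314 CPM) and 42 in the KIN libraries (6.34, 4.09 and 4.6 CPM). Its groups were well apart (2.48 ± 0.50, adjusted p = 0.000484) at a low level, and DESeq2 gave it no adjusted p. Complexes II and III gave 0 of the genes called. The median was 0.52 over the 9 genes of complex III, all above 0, and 0.23 over the 4 of complex II, where each gene's genotypes overlapped. At an unadjusted p below 0.05 the counts were 33 over the set, against 24.9% of all genes, and 0 in complex II, and DESeq2 called 6 genes of the set in all.

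In GRCm39, among the complex I genes that rose, Ndufa3 spans chr7:3620342-3623326 (plus strand), Ndufb9 chr15:58805594-58814819 (plus), Ndufa12 chr10:94034582-94057450 (plus) and Ndufa5 chr6:24518659-24528012 (minus). Ndufa7, at chr17:34043537-34057291 (plus), and Ndufv2, at chr17:66385633-66408634 (minus), share a chromosome, as do Ndufs7, at chr10:80084941-80095049 (plus), and Ndufa12. Atp5e spans chr2:174302861-174305906 (minus), Atp5g2 chr15:102571295-102580787 (minus) and Cox6b2 chr7:4754789-4756093 (minus). Among all 81 genes 50 overlap exons of a gene on the opposite strand and 6 those of another gene on the same strand, and 17 have pseudogene copies that share at least 100 words of 31 bases, which took 224 reads against 30344 of the subunit genes. For 19 genes under 50% of reads fell on protein-coding transcripts, 15.77% of all reads of the set being on retained-intron models.

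A further 14 genes passed the adjusted p alone. In complex I these included Ndufv1 (0.78 ± 0.26, adjusted p = 0.035), which binds NADH, and the accessory subunits Ndufa2 (0.73 ± 0.25, 0.0479), Ndufa11 (0.80 ± 0.27, 0.0397), Ndufa13 (0.80 ± 0.23, 0.0166) and Ndufb8 (0.77 ± 0.26, 0.039). In complex III it was Uqcr11 (0.83 ± 0.24, 0.0164), and in complex IV Cox6b1 (0.97 ± 0.24, 0.0046), the common isoform beside Cox6b2, and Cox8a (0.63 ± 0.22, 0.0449). In complex V they were Atp5g1, Atp5d of the central stalk (0.85 ± 0.23, 0.00964), Atp5h (0.79 ± 0.23, 0.0159) and Atp5o (0.75 ± 0.25, 0.0365) of the peripheral stalk, and the membrane subunit Atp5j2 (0.86 ± 0.27, 0.0284). The number at this threshold moved with the libraries: it was 8 without WT library 3, 10 without KIN library 2, 11 without WT library 1 and 30 without WT library 2, and it was 9 with DESeq2, 15 with all 18 libraries in one fit and 15 on protein-coding transcripts alone. Below 0 were Ndufb3 (-0.56), Cox7b (-0.13), Ndufb2 (-0.12), Ndufb5 (-0.11), Ndufs1 (-0.08) and Cox6c (-0.07), none of which passed.

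**Figure D2:**
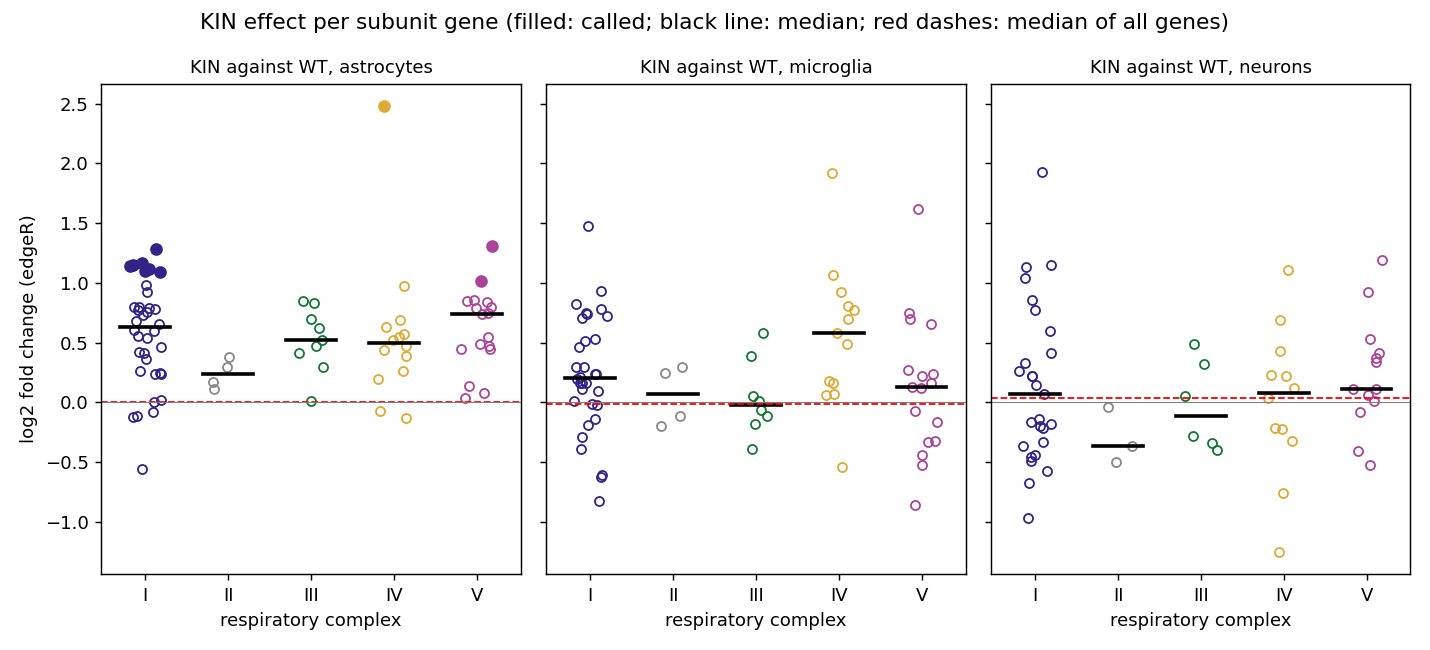
log2 fold change of KIN against WT for each subunit gene, by complex, in astrocytes, microglia and the neuronal fraction (filled points are called, black lines are the medians of the complexes, red dashes the median of all genes tested). In astrocytes the medians of all complexes lie between 0.23 and 0.74 with the median of all genes at -0.00, and filled points appear there alone.

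The sums over each complex were also apart by genotype, except in complex II. Complex I without the leading Ndufs7 transcript summed to 212, 270 and 215 CPM in WT astrocytes and to 339, 413 and 375 CPM in KIN, a ratio of 1.62. Complex V summed to 170, 204 and 178 CPM against 271, 320 and 286 CPM, a ratio of 1.59. In both the lowest KIN library was above the highest WT library. Complex III summed to 74.9, 83.9 and 68.0 CPM against 104, 119 and 113 CPM (ratio 1.48) and complex IV to 122, 164 and 111 CPM against 183, 200 and 207 CPM (ratio 1.49), again with no overlap. Complex II summed to 25.8, 32.8 and 26.3 CPM against 32.0, 35.8 and 36.0 CPM (ratio 1.22), and here the groups overlapped.

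Other measures moved with genotype in the same libraries. Astrocyte markers summed to 642 to 947 CPM in WT and 347 to 378 CPM in KIN astrocytes, with 3 of 7 called lower (Fgfr3, Gja1 and Slc1a2). Neuronal markers summed to 48.1 to 150 CPM in WT and 38.9 to 57.9 CPM in KIN, with 8 of 10 called lower. Of the 10, 1 went the other way (0.92) and passed the adjusted p without being called. Oligodendrocyte markers summed to 356 to 553 CPM in WT and 616 to 631 CPM in KIN, with 2 of 6 called higher (Cnp and Mog). Ependymal and choroid plexus markers summed to 94.3 to 108 CPM in WT and 139 to 245 CPM in KIN. All 4 had every KIN library above every WT library, with a median of 0.88, and 3 passed the adjusted p, although 0 were called. Microglial markers summed to at most 9.72 CPM in both, with Aif1 and P2ry12 at 0 in WT and Tmem119 at 0 in KIN. Fold changes also went with transcript length. Genes whose leading transcript was under 600 bases had a median of 0.44 over 286 genes, and those over 4000 bases -0.16 over 4961 genes. At each length the subunit genes lay higher, at 0.73 (17 genes) against 0.44 under 600 bases, 0.66 (21) against 0.34 from 600 to 1000, 0.47 (21) against 0.29 from 1000 to 2000, 0.36 (13) against 0.03 from 2000 to 4000, and 0.54 (8) against -0.16 above. The part of the cell markers and of length in the result was not tested.

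In microglia 0 of 74 subunit genes tested were called by edgeR, against 1.52% of all genes in either direction. At an unadjusted p below 0.05 there were 11 (14.9%), close to the 12% of all genes, and DESeq2 called 0. Above 0 were 51 genes (68.9%), with a median of 0.17 against -0.01 over all genes. The median was 0.58 in complex IV, where 12 of 13 genes were above 0, and 0.20 in complex I, 0.07 in complex II, -0.02 in complex III and 0.13 in complex V. In 10 genes all KIN libraries were above all WT libraries, against 8.46% of all genes, and 5 of the 10 belonged to complex IV. Without WT library 2 there were 3 genes called higher, and without a filter on low counts 2.

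Cox6b1 of complex IV was read at 7.47, 11.4 and 3.41 CPM in WT and at 19.1, 13.6 and 13.7 CPM in KIN microglia. The groups were apart but the change did not pass (1.07 ± 0.31, adjusted p = 0.0835). Cox4i1, the largest nuclear-encoded subunit of the complex, was read at 13.1, 18.9 and 11.1 CPM against 22.6, 22.3 and 18.9 CPM (0.58 ± 0.25, adjusted p = 0.329). Cox8a was read at 22.7, 28.8 and 18.7 CPM against 32.6, 35.9 and 29.8 CPM (0.49 ± 0.24, adjusted p = 0.413). In both the genotypes did not overlap. Cox7a2 was read at 3.29, 3.97 and 1.70 CPM against 7.95, 4.31 and 4.91 CPM (0.92 ± 0.40, adjusted p = 0.325), with WT library 2 close to the lowest KIN library. Cox6a2, the isoform of heart and skeletal muscle, had 3 reads in WT and 13 in KIN microglia (1.92 ± 0.95, adjusted p = 0.43).

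In complex I of microglia Ndufa3 was read at 4.18, 7.44 and 5.96 CPM in WT and at 11.5, 12.2 and 8.77 CPM in KIN. The genotypes were apart, as in astrocytes, without passing the test (0.93 ± 0.30, adjusted p = 0.13). Ndufa13 (0.78 ± 0.31), Ndufa2 (0.82 ± 0.29), Ndufb2 (1.48 ± 0.51, adjusted p = 0.164) and, in complex V, Atp5l (0.70) were the others with every KIN library higher. The value of Ndufb2 rests on KIN library 3, at 12.3 CPM, the other KIN libraries being at 3.58 and 2.51 CPM and those of WT at 2.39, 1.98 and 2.13 CPM. Ndufa11 alone had every KIN library lower, against 7.55% of all genes, at 5.08, 6.45 and 4.26 CPM in WT and 1.19, 3.95 and 3.51 CPM in KIN (-0.82 ± 0.41, adjusted p = 0.434). Complex IV summed to 78.5, 97.7 and 60.9 CPM in WT and 129, 118 and 103 CPM in KIN microglia, with no overlap and a ratio of 1.47, while the sums of complexes I, II, III and V overlapped. Neuronal markers in these libraries summed to 21.3 to 77.1 CPM in WT and 9.33 to 11.5 CPM in KIN, with 6 of 10 called lower. Astrocyte markers summed to 23.3 to 34.1 CPM in WT and 15.1 to 17.2 CPM in KIN, with Slc1a2 and Aldoc called lower, and oligodendrocyte markers to 27.3 to 29 CPM and 13.5 to 16.5 CPM, with 0 called. All these sums were lower in every KIN library than in every WT library, and their part in the values above was not tested.

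In the neuronal fraction 0 of 61 genes tested were called, against 0.0739% of all genes in either direction. An unadjusted p below 0.05 was reached by 3 (4.92%, against 5.04% of all genes), and DESeq2 called 0. Above 0 were 34 genes (55.7%), with a median of 0.06 against 0.04 over all genes, and the medians of the complexes were between -0.36 (complex II) and 0.11 (complex V). In 5 genes all KIN libraries were higher, against 11.5% of all genes, and in 1 all were lower, against 2.22%. On the CPM scale common to all libraries the median log2 ratio of KIN to WT over the genes tested in this fraction was 0.24 (0.00 in astrocytes), so that the CPM values of KIN neurons are shifted upward by that much. Ndufa2, an accessory subunit, was read at 5.42, 6.15 and 2.70 CPM in WT and at 15.1, 11.4 and 10.3 CPM in KIN, well apart but not past the test (1.13 ± 0.47, adjusted p = 0.912).

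Ndufb11, of the membrane arm of complex I, was read at 3.25, 2.05 and 2.70 CPM in WT and at 5.90, 5.68 and 5.16 CPM in KIN neurons (0.86 ± 0.66, adjusted p = 0.968). Atp5d was read at 13.0, 11.3 and 14.8 CPM against 21.0, 20.3 and 18.1 CPM (0.41 ± 0.34, adjusted p = 0.968). Both had every KIN library higher, as had Ndufs7 and Ndufa13. Cox5b, a subunit on the matrix side of complex IV, went the other way, at 17.3, 11.3 and 13.5 CPM in WT and 7.21, 4.06 and 8.38 CPM in KIN, also without overlap (-1.25 ± 0.42, adjusted p = 0.592). These WT libraries were the shallowest of the series, and each of these differences missed the adjusted p of 0.05. Oligodendrocyte markers summed to 21.6 to 263 CPM in WT and 21.9 to 32.8 CPM in KIN neurons, with 1 of 4 tested called lower (Mbp). Erythroid markers summed to 256 to 519 CPM in WT and 112 to 343 CPM in KIN. All 4 tested were below 0 (median -0.83) with 0 called. The part of these markers in the values above was not tested.

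Whether the genotype effect itself differed between fractions was tested with an interaction in the fit of all 18 libraries. Of 81 genes 0 were called in each of the contrasts microglia minus astrocytes, neurons minus astrocytes and neurons minus microglia, against 0.819%, 0.708% and 0.14% of all genes. At an unadjusted p below 0.05 there were 9, 11 and 2 (11.1%, 13.6% and 2.47%), against 11.2%, 12.3% and 9.64% of all genes, and DESeq2 called 0, 2 and 0. Without WT astrocyte library 2 there were 2 called in the first contrast, and without KIN neuron library 1 there was 1 in the second. The median was -0.40 for microglia minus astrocytes, against -0.05 over all genes, and -0.45 for neurons minus astrocytes, against 0.28. The third contrast had -0.08 against 0.29.

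Among the 10 genes that rose in astrocytes, Ndufa3 had the same direction in microglia (difference -0.36 ± 0.44), whereas in neurons it was read at 10.8, 14.4 and 6.74 CPM in WT and at 12.4, 4.87 and 7.09 CPM in KIN. The neuronal genotypes overlapped, and the difference of effects was -1.68 ± 0.51 (adjusted p = 0.0851). Ndufv2 was read at 9.76, 7.18 and 10.8 CPM in WT neurons and at 4.59, 3.24 and 7.74 CPM in KIN neurons, overlapping and lower on average, where KIN astrocytes were higher (difference -1.91 ± 0.59, adjusted p = 0.0929). Atp5e was nearly level in microglia, at 20.9, 16.9 and 20 CPM in WT and 22.2, 21.2 and 19.6 CPM in KIN (difference -0.93 ± 0.37, adjusted p = 0.268). Ndufb9 was at 3.29, 5.46 and 3.41 CPM against 6.75, 3.95 and 2.10 CPM in microglia (difference -1.02 ± 0.51, adjusted p = 0.431), with KIN libraries on either side of WT. A difference of the genotype effect between fractions was thus not called for any single gene with all libraries in the edgeR fit.

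**Figure D3:**
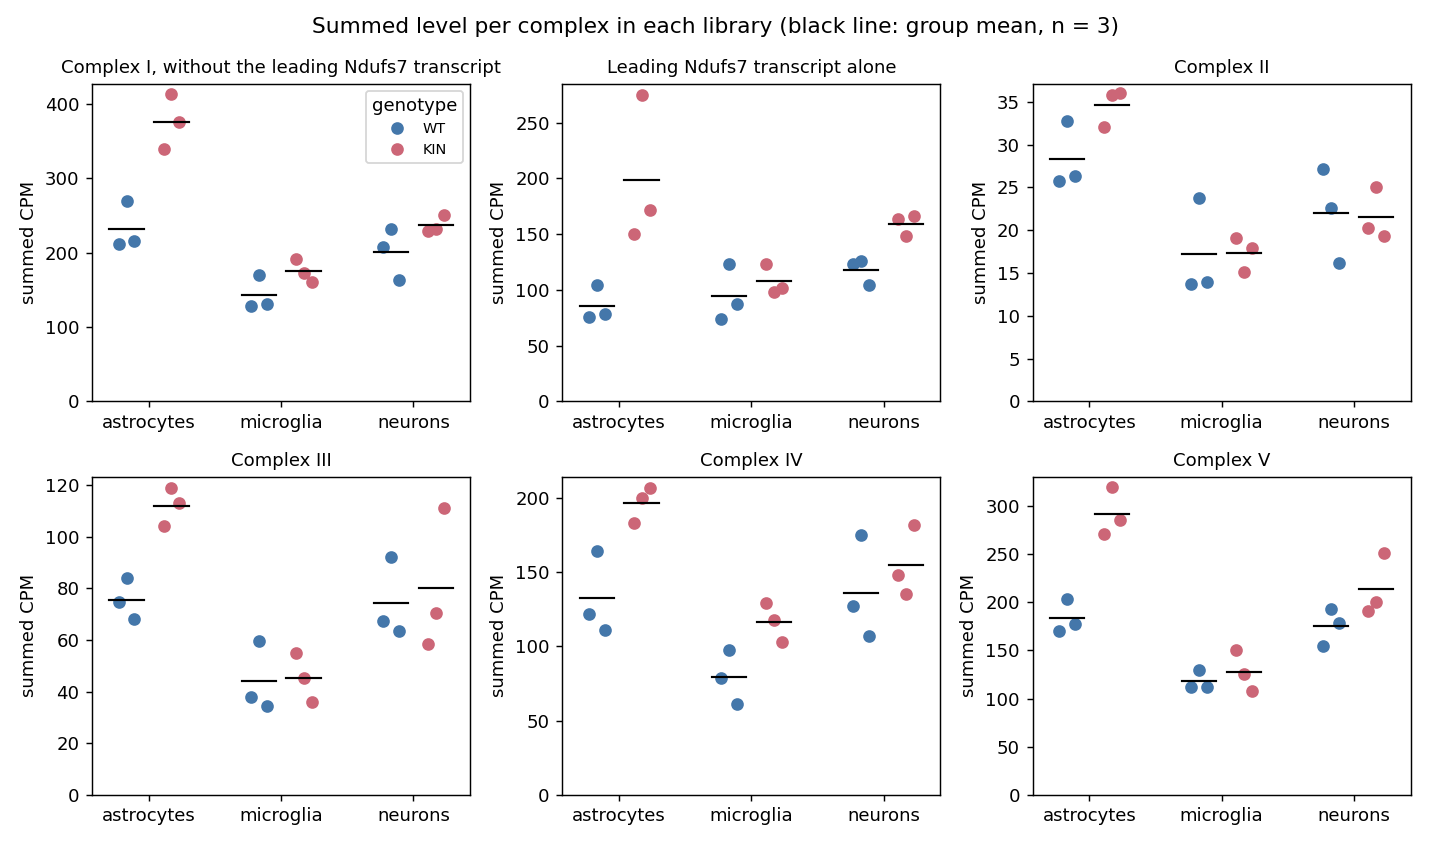
Summed level of the subunit genes of each complex in every library (CPM, axes from 0; points are libraries, lines are group means), with the leading Ndufs7 transcript drawn apart from the rest of complex I. In astrocytes complexes I, III, IV and V are separated by genotype, as the 212 to 270 CPM of WT against 339 to 413 CPM of KIN show for complex I, and microglia lie below astrocytes in most sums.

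Between fractions the main difference was that microglia held less of these transcripts than astrocytes. With both genotypes weighed alike and the libraries of a brain treated as independent, 35 of 81 genes were lower in microglia and 2 higher, against 18.2% lower and 14.9% higher of all genes tested. Below 0 were 77 genes, with a median of -0.93 against -0.02 over all genes. The complexes did not part: their medians were -0.86 (I), -0.84 (II), -0.96 (III), -0.99 (IV) and -0.95 (V). In WT libraries alone 21 were lower and the median was -0.72 (all genes -0.04), and in KIN alone 45 were lower, 2 higher, and the median was -1.12 (all genes -0.01). The sum without the leading Ndufs7 transcript was, in microglia, 0.615 of that in astrocytes in WT and 0.477 in KIN. Markers of other cells differed between these fractions too. All 6 oligodendrocyte markers were lower in microglia (median -4.70), with sums of 13.5 to 29 CPM against 356 to 631 CPM in astrocytes. So were 3 of 4 ependymal and choroid plexus markers (median -4.45) and 3 of 4 pericyte and mural markers tested (median -2.82). Also called lower were 4 of 4 erythroid markers tested (median -1.94), 4 of 10 neuronal markers (-0.94) and 1 of 4 endothelial markers (-0.81). The part of these markers in the result was not tested. Short genes as a whole were higher in microglia, with a median of 0.59 under 600 bases, where the 17 subunit genes had -0.93.

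In complex V Atp5b, the catalytic beta subunit, was read at 29.3 to 51.0 CPM in astrocytes (41.1 ± 9.23, mean ± SD, n = 6) and at 9.12 to 18.3 CPM in microglia (14.5 ± 3.83), with no overlap (-1.48 ± 0.19, adjusted p = 2.4e-11). Atp5a1, the alpha subunit beside it, was 21.8 to 26.8 CPM in astrocytes and 7.15 to 13.4 CPM in microglia (-1.29 ± 0.20, adjusted p = 1.48e-08). Atp5o, which joins the peripheral stalk to the catalytic head, had 16.2 ± 5.69 CPM in astrocytes and 4.28 ± 0.809 CPM in microglia (-1.84 ± 0.24, adjusted p = 7.3e-11). All 6 microglial libraries of Atp5o, at 3.23 to 5.56 CPM, were below the lowest astrocytic library, at 8.47 CPM. The small subunit Atp5mpl was lower as well (-1.70 ± 0.42, adjusted p = 0.000339), as were Atp5d, Atp5g3, Atp5j2 and Atp5k.

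In complex I 14 genes were lower in microglia, among them Ndufv1, at 7.21 to 15.3 CPM in astrocytes and 2.69 to 5.03 CPM in microglia (-1.65 ± 0.26, adjusted p = 2.71e-08). The others were Ndufv2, Ndufs5, Ndufs6, Ndufs8, Ndufa5, Ndufa8, Ndufa11, Ndufa13, Ndufb5, Ndufb8, Ndufb9, Ndufb11 and Ndufc2. In complex III Uqcrc1, a core protein, was at 23.3 ± 5.03 CPM in astrocytes and 8.72 ± 3.97 CPM in microglia (-1.42 ± 0.21, adjusted p = 5.46e-09), and Cyc1, Uqcr10 and Uqcrc2 were lower too. In complex II Sdha and Sdhb were lower, the latter at 9.89 ± 2.6 CPM against 4.36 ± 0.673 CPM, whereas the membrane anchor Sdhc, at 7.48 ± 1.58 CPM against 5.33 ± 2.44 CPM, was not called. In complex IV Ndufa4 was at 3.76 to 7.29 CPM in astrocytes and at 0 to 2.99 CPM in microglia (-1.87 ± 0.39, adjusted p = 2.12e-05), and Cox5b, Cox6a1, Cox6b2, Cox6c, Cox7a2 and Ndufa4l2 were lower as well.

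The genes higher in microglia were Cox7a2l and Cox6a2, both of complex IV by name. Cox7a2l was read at 4.08 to 7.16 CPM in astrocytes and at 7.77, 11.9 and 5.53 CPM in WT and 17.9, 13.3 and 11.2 CPM in KIN microglia. Only WT microglial library 3 fell within the astrocytic range (1.01 ± 0.24, adjusted p = 0.000227). The change is at the threshold, and 10 of 22 alternatives lost the call, DESeq2 (0.99), the replicate block and WT libraries alone (0.86) among them. Cox6a2 had 16 reads in the microglial libraries and 1 in the astrocytic ones, a ratio of CPM of 17.3 with a 95% counting interval of 2.68 to 724 that covers counting error only. Cox6a2 overlaps Itgad on the opposite strand, and reads of the 2 cannot be told apart without strand.

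**Figure D4:**
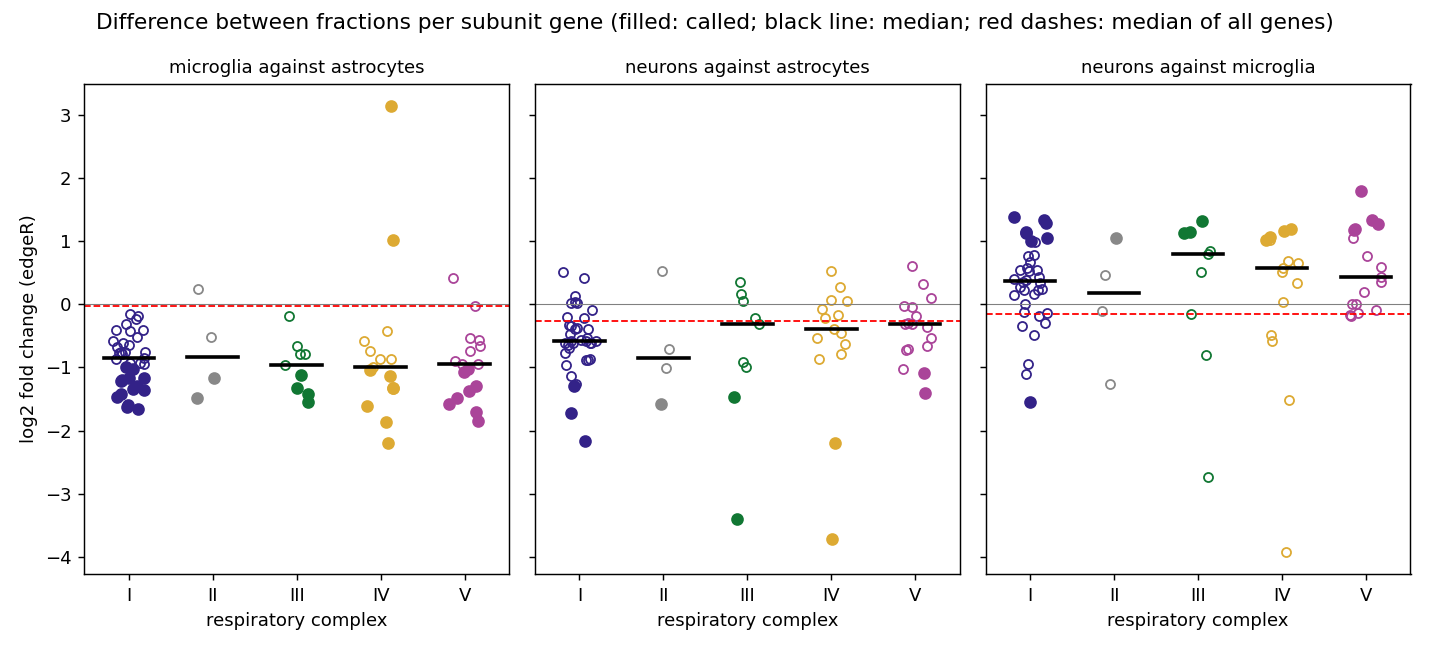
log2 fold change between fractions for each subunit gene, by complex (filled points are called, black lines are medians of the complexes, red dashes the median of all genes tested; points beyond 3 in size belong to genes with few or 0 reads in a fraction and are fitted values, not bounds). Microglia lie below astrocytes in 77 of 81 genes, with medians of the complexes between -0.99 and -0.84.

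In the neuronal fraction the sum without the leading Ndufs7 transcript was 0.934 of that in astrocytes in WT and 0.699 in KIN. Against astrocytes 10 of 81 genes were lower and 0 higher, against 19.3% lower and 11.5% higher of all genes, and the median was -0.53 against -0.27. The position relative to all genes turned with genotype. In WT alone 1 gene was lower and 1 higher with a median of -0.15, above the -0.34 of all genes, of which 11.9% were lower. In KIN alone 16 were lower and 0 higher with a median of -0.65, below the -0.18 of all genes, of which 16.9% were lower. Without WT astrocyte library 2 there were 6 called. Atp5a1 was at 5.13 to 12.9 CPM in neurons, below every astrocytic library (-1.41 ± 0.24, adjusted p = 3.41e-07). Ndufb5 (-2.16 ± 0.68, adjusted p = 0.0075) and Ndufb1 (-1.72 ± 0.59, adjusted p = 0.0161), accessory subunits of the membrane arm, had at most 1.62 CPM in any neuronal library. Uqcrfs1, the Rieske iron-sulfur protein of complex III, had 36 reads in astrocytes and 3 in neurons, a ratio of 4.87 (95% counting interval 1.54 to 24.7). The others were Ndufc2, Sdha, Uqcrc2, Cox6b2, Ndufa4l2 and Atp5c1. In the same contrast 6 of 6 oligodendrocyte markers (median -3.83), 4 of 4 endothelial markers (-1.99) and 3 of 4 pericyte and mural markers (-3.67) were called lower in neurons. Of 4 ependymal and choroid plexus markers 3 were called lower and 1, Ttr, higher (median -3.40). Their sum was 148 to 401 CPM in WT and 272 to 450 CPM in KIN neurons. In astrocytes it was 94.3 to 108 CPM in WT and 139 to 245 CPM in KIN. Called higher in neurons were 4 of 4 erythroid (4.31) and 2 of 2 lymphocyte markers (5.87). The part of all these markers in the result was not tested.

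Against microglia 20 genes were higher in neurons and 1 lower, against 10.2% and 17.3% of all genes, and the median was 0.43 against -0.15. Atp5o was read at 5.42, 18.5 and 13.5 CPM in WT and 13.8, 13.0 and 27.1 CPM in KIN neurons, and only WT library 1 reached down into the microglial range (1.80 ± 0.28, adjusted p = 5.01e-08). Ndufb9, at 6.74 to 12.3 CPM in neurons and 2.10 to 6.75 CPM in microglia, came next (1.38 ± 0.29, adjusted p = 5.1e-05), the ranges touching at one library each. Atp5j2 (1.34 ± 0.27), Ndufb8 (1.33 ± 0.29) and Uqcr10 (1.32 ± 0.34) followed. The others were Ndufa5, Ndufa11, Ndufab1, Ndufb2, Ndufv2, Sdhc, Uqcrh, Uqcrq, Cox5b, Cox6b1, Cox7a2, Cox7c, Atp5b, Atp5d and Atp5k. Ndufb1 was the one lower (-1.54 ± 0.61, adjusted p = 0.0432), and 12 of 21 alternatives lost that call. Among the genes higher, Ndufa11 lost its call in 12 alternatives, Cox6b1 in 10, Ndufa5 in 9 and Sdhc in 7. Atp5b, Atp5o, Ndufb8 and Ndufb9 lost theirs in 0. Without KIN neuron library 3 the calls numbered 13, and in WT libraries alone 10. All 4 erythroid markers tested were called higher in neurons than in microglia (median 6.29), as were both lymphocyte markers tested (median 4.62). Mbp and Mobp of the 6 oligodendrocyte markers were also higher, as was Ttr of the 4 ependymal and choroid plexus markers, while 3 of 4 endothelial markers were lower. Of 10 neuronal markers 3 were called higher and 1 lower (median 0.04). The part of these markers in the result was not tested.

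Cytochrome c oxidase and the ATP synthase have subunits with more than one gene, whose levels are given per length of the leading transcript, as CPM per kilobase (means of the 6 libraries of each fraction, in the order astrocytes, microglia and neurons). Reads come from transcript ends, for which division by length can set an order by construction, so an order is given only where the reads themselves have it too. Cox4i1 was at 41.2 ± 9.4 (SD, n = 6), 22.8 ± 6.07 and 34.7 ± 9.07, and its lung isoform Cox4i2 at 0.577, 0 and 0.45. Cox8a was the isoform read for its subunit (76.7 ± 21.9, 50.8 ± 11.5 and 71.2 ± 22.8), with Cox8b and Cox8c under the read limit. The liver isoform Cox6a1 (19.5 ± 4.55, 9.38 ± 2.2 and 13.7 ± 6.92) exceeded Cox6a2 (0.0769, 1.42 and 0) in each fraction. Cox6b1 (28.5 ± 12.6, 17.4 ± 8.28 and 33.2 ± 13.7) likewise exceeded Cox6b2 (4.91 ± 4.03, 1.11 ± 0.762 and 0.795 ± 1.39), of whose 64 reads 42 were in KIN astrocytes.

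Cox7a2 (2.02, 0.829 and 1.79 CPM per kilobase) and Cox7a2l (3.97, 8.2 and 5.7) had nearly equal reads, 321 and 320, and the leading transcript of Cox7a2 was 5250 bases long, so no order is drawn between them, and the muscle isoform Cox7a1 was at 2.16, 0.586 and 0.796 with 25 reads in all. Cox7b was at 4.4, 2.47 and 3.02, with Cox7b2 at 1 read. Ndufa4 (8.28, 2.1 and 4.33) exceeded its paralog Ndufa4l2 (1.68, 0.3 and 0.113), which is known as a target of the hypoxia response, and Ndufa4l2 had 28 reads in astrocytes, 5 in microglia and 1 in neurons. Of the c subunit genes Atp5g2 was at 10.3 ± 5.44, 12.8 ± 5.2 and 14.4 ± 3.5 and Atp5g3 at 5.24 ± 0.917, 2.46 ± 0.76 and 3.23 ± 2.63. Atp5g1 was at 4.65 ± 1.52, 2.85 ± 0.522 and 4.95 ± 1.99 with a leading transcript of 4755 bases, although it had the most reads of these genes (760, against 346 for Atp5g2 and 150 for Atp5g3). No order is drawn between the c subunit genes.

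Other genes of the pathway in KIN astrocytes were counted against the same background, 2.43% of all genes higher and 6.42% lower. Of 35 assembly factors tested 2 rose, Ndufaf3 (1.99 ± 0.51, adjusted p = 0.0062), which acts in complex I assembly, and Coa3 (1.17 ± 0.39, adjusted p = 0.039), which acts in complex IV assembly, with a median of 0.26. Of 13 electron carriers and nucleotide exchangers 0 were called (median 0.15) and of 21 enzymes of the citric acid cycle and pyruvate entry 0 (median 0.12). Of 9 genes of mitochondrial transcription and biogenesis Esrra, a nuclear receptor that regulates respiratory genes, fell by 1.05 on the log2 scale (SE 0.32, adjusted p = 0.024), and the median was -0.98. In 6 of these 9 genes all KIN values were below all WT values, against 14.1% of all genes. In microglia 0 of these genes were called among 29, 12, 18 and 8 tested, and in neurons 0 among 17, 9, 13 and 5.

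The 13 mitochondrially encoded subunits, partners of the nuclear ones, had all log2 fold changes above 0 in KIN astrocytes (median 0.28) with 0 called, and summed to 930, 1290 and 880 CPM in WT and 1070, 1310 and 1500 CPM in KIN, which overlapped. In KIN microglia their median was 0.83, with all 13 above 0 and mt-Nd6 called higher. The sums there were 311, 440 and 270 CPM in WT and 605, 532 and 584 CPM in KIN, without overlap and with a ratio of 1.68, larger than in the nuclear sum of any complex. In neurons all 11 tested were below 0 (median -0.33) with 0 called. Their sums were 263, 606 and 267 CPM in WT and 301, 310 and 378 CPM in KIN. On this common scale only WT library 2 lay above the KIN libraries, the other WT libraries being below every KIN library. Values of KIN neurons are shifted upward on that scale (median 0.24 over the genes tested, against 0.04 in the fit of this fraction). The order of libraries need therefore not hold in the fit. Between fractions 11 of 13 were lower in microglia than in astrocytes (median -1.43) and 13 of 13 lower in neurons (median -1.75), where the nuclear set had -0.53.

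Metabolic neighbours of the chain differed between fractions as well. Of 21 citric acid cycle genes 9 were lower in microglia than in astrocytes, among them Cs, the citrate synthase (-1.42 ± 0.21, adjusted p = 6.41e-09), and 10 were lower in neurons, against 18.2% and 19.3% of all genes. Slc25a4, an ADP/ATP carrier, was lower in microglia (-1.79 ± 0.23, adjusted p = 2.28e-11) and in neurons (-2.22 ± 0.31, adjusted p = 8.26e-10) than in astrocytes. Ucp2, an inner-membrane carrier, was higher in microglia (3.02 ± 0.21, adjusted p = 2e-26), as was Etfa (1.07).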

How the data were processed

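RNA from 18 libraries was sequenced by the authors as panRNA (reads of cDNA ends, from polyadenylated fragments after rRNA depletion, with molecular identifiers), trimmed with cutadapt 4.6, mapped stepwise to mm39 with Bowtie2 2.4.4 and counted with HTSeq 2.0.2 without strand. The deposited counts are whole numbers of reads per transcript, not normalised. Counts of 116873 transcript rows were summed here by gene name. The 137 rows without a name were kept under their identifiers, which count among the 35960 names. The authors' columns of fold changes and p-values in the same table were left aside, as were 36 further columns with per-sample values.

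Tests used edgeR 4.0.16 (R 4.3.3) with TMM scaling. Each fraction was fitted on its 6 libraries, with genes of at least 5 reads in at least 2 libraries, and fraction contrasts and interactions on all 18 with one mean per group. The study's methods use DESeq2 with the same thresholds, and DESeq2 1.42.0 was an alternative, as were other scalings, filters, a replicate block, the highest transcript and leaving out each library. Scripts were tested on simulated data. The members and lists were chosen with earlier results of these data known. The genes named with values were those called in KIN, the 3 most changed each way without overlap in a fraction, the 5 most changed each way among those called between fractions, the 2 highest of each complex, and isoform families; genes counted beside them are named where a list turns on them, after their values were seen. Names follow the table, whose older forms include Atp5e, Atp5g1 to Atp5g3 and Atp5o. The ATP synthase inhibitor has the name Atpif1 there, does not match the name rule and is no member. Promoters come from RefSeq, gene models from GENCODE. Ranges in totals limit precision: 3 reads in the shallowest library are 4.05 CPM. Values of some single genes are not reported here.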

Additional observations from a re-analysis of the deposited data

How the results depend on the processing

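In KIN astrocytes 10 genes were called. DESeq2 called 6 and the adjusted p alone 24, and leaving out one library at a time gave 7 to 16 (16 without WT library 2). In KIN microglia the 0 calls became 2 without a filter on low counts and 0 to 3 on leaving out a library (3 without WT library 2), and in neurons the count stayed at 0 throughout. The median log2 fold changes ranged over leave-one-out fits from 0.48 to 0.70 in astrocytes, 0.10 to 0.30 in microglia and -0.12 to 0.20 in neurons. Between microglia and astrocytes 37 genes were called, 61 by the adjusted p alone, 21 in WT alone and 31 to 41 on leaving out a library. Between neurons and astrocytes 10 were called, 18 by the adjusted p alone, 2 with a mean of at least 10 counts, 2 in WT alone, 16 in KIN alone and 6 to 13 on leaving out a library. Between neurons and microglia 21 were called, 10 in WT alone and 13 to 23 on leaving out a library. Interactions with 0 calls gave 0 to 2 (microglia minus astrocytes), 0 to 1 (neurons minus astrocytes, 2 with DESeq2) and 0 to 0. The cause of these shifts was not tested. The neuronal median, near 0 at 0.06, turned below 0 without KIN library 3 (-0.12) or WT library 1 (-0.06), and no call changed direction. The counts on protein-coding transcripts alone and without the leading Ndufs7 transcript were added after seeing the data.

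Fractions share brains, but the labels do not say which libraries come from one brain. Libraries with the same replicate number did not deviate together as a rule: over 27 such pairs the correlation of deviations was -0.096 to 0.216 and above 0.1 in 2. With the replicate number as a block (within genotype for the fractions), 10, 0 and 0 genes were called in astrocytes, microglia and neurons, 34, 9 and 19 between fractions and 0, 0 and 0 in the interactions.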
